A study of Mus musculus with 15 samples.

Results

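Oligodendrocyte precursor cells (OPCs) of the dorsal hippocampal formation (dHF) were studied in snRNA-seq of 15 female C57BL6/J mice. They were selected on measured counts, as the barcodes with at least 500 genes, at least 2 UMIs of Pdgfra, at least 2 UMIs of Lhfpl3 and at most 1 UMI of Gad1 and Gad2 together. A UMI is a counted RNA molecule. The rule found 2665 OPCs among 134019 barcodes, of which 133236 had at least 500 genes, and every mouse held between 115 and 221 of them. The mice formed 3 groups. Virgin nulliparous mice (NP, n = 6) gave 996 OPCs. Mice with reproductive experience, that is mating, pregnancy, birth, lactation and care of pups (control RE, n = 4), gave 819. Mice with the same experience that also had limited nesting material and daily removal of the litter in the later part of lactation (stress RE, n = 5) gave 850. Tissue was collected weeks after weaning. The comparisons ask whether reproductive experience (control RE against NP) or stress during it (stress RE against control RE, and against NP) went with a difference in the number, state or expression of OPCs. Each library was 1 mouse, and the punches can hold pieces of cortex, thalamus and ventral hippocampus beside the dHF.

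OPCs are the dividing glial cells of the adult brain from which oligodendrocytes, the myelin-forming cells, arise. They are spread through grey and white matter, depend on platelet-derived growth factor through its receptor Pdgfra, and carry the proteoglycan NG2, the product of Cspg4. Neurons form synapses onto them, and they express glutamate and GABA receptors and voltage-gated channels. An OPC that commits to the lineage loses Pdgfra and passes through a short stage marked by Gpr17, Bmp4, Enpp6 and Bcas1 before the myelin genes come on. Turnover of OPCs and new oligodendrocytes in the adult have been linked to learning and to hormonal state.

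The libraries held 40602582 to 96211264 UMIs, and OPCs contributed 679893 to 1545457 UMIs per mouse. Median UMIs per OPC were 4546 to 7305 in NP, 3664 to 5449 in control RE and 3543 to 6754 in stress RE mice. Batch 1 of the labels held NP mice 27 and 31 and stress RE mouse 70 but no control RE mouse, while each group had 2 mice in batch 2 and 2 in batch 3. The methods, in contrast, describe processing batches that all contained every group, so the labelled batch may not be the processing batch. No barcode sequence was shared between OPCs of different libraries. Whether an OPC barcode also occurred among the other barcodes of another library was not counted. Of all barcodes, 4462 (3.33%) occurred in more than 1 library, which is a wider count than that within OPCs. No doublet caller was run. In its place, 437 OPCs (16.4%) with at least 2 UMIs of markers of another class were set apart for an alternative, of which 170 had glutamatergic, 170 microglial, 109 oligodendrocyte, 26 astrocyte, 20 leptomeningeal and 7 endothelial UMIs. Their median UMI count was 8340, against 4812.5 in the other OPCs. One library stood apart: OPCs of NP mouse 27 held 1016 CPM (UMI counts scaled to the total of the pooled class) of the choroid plexus gene Ttr, against 3.30 to 139 CPM in the other mice, and 29.2 CPM of the fibroblast gene Col1a2, against 0 to 6.14 CPM.

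The genes that chose the OPCs are given as a description. Pdgfra had 2 to 19 UMIs per OPC (median 4) and Lhfpl3, a tetraspan membrane protein typical of OPCs, had 2 to 174 (median 33). Vcan and Cspg4, which the rule did not use, had medians of 7 and 2 UMIs. Barcodes near the Pdgfra threshold carried other OPC markers on both sides of it, whereas the few near the Lhfpl3 threshold had little of them on either side. The 608 OPCs with exactly 2 Pdgfra UMIs had 1104 CPM of Vcan and 292 CPM of Cspg4, close to the 1212 and 318 CPM of all OPCs. The 817 barcodes just outside, with 1 Pdgfra UMI and at least 2 of Lhfpl3, still had 492 and 133 CPM. In contrast, the 17 OPCs with exactly 2 Lhfpl3 UMIs had 59.8 CPM of Vcan and 179 CPM of Col1a2, like the 72 just outside with 1 Lhfpl3 UMI (62.0 and 261 CPM), and the 329 barcodes with Pdgfra but no Lhfpl3 had 31.6 and 275 CPM. Col1a2 marks fibroblasts, which also express Pdgfra, so a few barcodes with such RNA remain among the OPCs. A further 347 barcodes met the Pdgfra and Lhfpl3 thresholds but were set aside for Gad1 and Gad2. They had 877 CPM of Vcan, 212 CPM of Cspg4 and a median of 7446 UMIs, more than the 5102 of OPCs. Among OPCs, 24.5% had a UMI of Gad1, and the Gad1 level, which the rule capped, was 39.4 CPM ± 6.76 (SD, n = 15 mice).

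Vcan and Cspg4, OPC markers that had no part in the rule, were high in these barcodes and low in oligodendrocytes and astrocytes. Other OPC markers, given below, were not all low in other glia. For reference, 3 other classes were taken from the same barcodes: oligodendrocytes (at least 2 UMIs of Mog, no Pdgfra; 16947 barcodes, median 3070 UMIs), astrocytes (at least 2 UMIs of Aqp4, no Pdgfra and no Mog; 2737 barcodes, median 4203 UMIs) and newly formed oligodendrocytes (at least 2 UMIs each of Enpp6 and Bcas1, at most 1 of Pdgfra; 2152 barcodes, of which 1397 also met the oligodendrocyte rule). Values are nuclear UMI counts that include introns, so levels were compared between classes for a given gene and not between genes. Vcan, a chondroitin sulphate proteoglycan of the OPC surface, was at 1207 CPM ± 89.4 (SD, n = 15) in OPCs, 15.3 CPM in oligodendrocytes and 43.2 CPM in astrocytes. At least 1 Vcan UMI was found in 97.1% of OPCs and 3.98% of oligodendrocytes. Cspg4 was at 328 CPM ± 89.96 and at 6.42 and 3.69 CPM in the same classes. Its highest values, 619 CPM in NP mouse 31 and 425 CPM in stress RE mouse 70, both came from batch 1, whose remaining mouse, NP 27, had 307 CPM, and the mice of the other batches lay at 265 to 346 CPM.

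All 16 tested members of the list of chondroitin sulphate proteoglycans and matrix genes were above oligodendrocytes in 15 of 15 mice. Against astrocytes 10 of them were above in every mouse and 6 in none. Among them were Ptprz1, a receptor phosphatase that itself carries chondroitin sulphate (2069 CPM), Xylt1, which starts the sugar chain (2315 CPM), and the matrix protein Tnr (4144 CPM). Tnr remained at 2175 CPM in newly formed oligodendrocytes and was at 283 CPM in oligodendrocytes. Matn4 (184 CPM), the membrane protein Megf11 (811 CPM) and the secreted C1q-like protein C1ql1 (92.7 CPM) were at 29.9, 14.4 and 0.802 CPM in oligodendrocytes.

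Of 22 tested lineage transcription factors, 14 were above oligodendrocytes in every mouse and 6 were below in every mouse. The higher ones included Sox6, which holds cells in the precursor state (1679 CPM against 50.2 CPM), Olig1 (137 against 65.9 CPM) and Olig2 (96.2 against 23.7 CPM), the factors that define the lineage. Sox10, which both stages need, differed little at 158 CPM ± 35.5 and 140 CPM, and it was higher in OPCs in 13 of 15 mice. The lower ones included Myrf, the regulator of the myelin programme (15.9 against 133 CPM), and St18 (178 against 2995 CPM). All 14 myelin genes were below oligodendrocytes in every mouse, with Mbp at 177 against 2968 CPM. As Mog chose the oligodendrocytes and is itself a myelin gene, these differences are descriptive.

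Receptors for neurotransmitters were broadly present. Of 20 glutamate receptor genes, 12 were above oligodendrocytes in every mouse, including the AMPA receptor subunits Gria2 (1482 CPM against 817 CPM) and Gria4 (1122 against 482 CPM), the NMDA receptor subunit Grin3a (528 against 32.1 CPM) and the metabotropic receptor Grm5 (1643 against 805 CPM). The reverse held for 4, among them Gria1, Grin2a and Grm3, the last at 121 against 1328 CPM. The GABA-A receptor subunit Gabrg3 (542 CPM) was above oligodendrocytes (159 CPM) in 15 of 15 mice, as were the potassium channel Kcnd2 (4693 against 1478 CPM), the sodium channel Scn1a (232 against 118 CPM) and Cacng4, which modulates AMPA receptors (718 against 10.8 CPM). In the adhesion and guidance list, 13 of 20 genes were above oligodendrocytes in every mouse, with Dscam at 3354 against 350 CPM.

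Hormone and dopamine receptors were of interest because of the treatment. The mineralocorticoid receptor Nr3c2 was at 396 CPM ± 67.4 and the glucocorticoid receptor Nr3c1 at 203 CPM ± 29.9 (SD, n = 15) in OPCs, and neither was above its level in oligodendrocytes (478 and 216 CPM) in more than 3 mice. The thyroid hormone receptor Thrb (335 against 127 CPM), which promotes differentiation of OPCs, and the growth hormone receptor Ghr (159 against 31.6 CPM) were above oligodendrocytes in 15 of 15 mice. Of the 8 tested hormone receptors, 0 were above astrocytes in every mouse and 3 were above astrocytes in 0 mice. Among receptors of pregnancy and lactation hormones, the progesterone receptor Pgr had 207 UMIs and 11.95 CPM ± 5.16 (SD, n = 15), above its level in oligodendrocytes (10.7 CPM) in 9 of 15 mice. The others were near the limit of detection. Esr1 had 51 UMIs over all OPCs, Prlr 60 and Oxtr 3. The dopamine receptors Drd1, Drd2, Drd3 and Drd5 had 14, 35, 11 and 13 UMIs, and Drd1 and Drd2 were above their levels in oligodendrocytes in 4 and 3 of 15 mice. For Drd4 no UMI was counted, and a count of 0 allows up to 3 UMIs, for counting error only. Among adrenergic receptors Adra1a stood out against oligodendrocytes, at 82.0 CPM ± 16.4 against 6.29 CPM. All 5 tested dopamine and monoamine genes, Adra1a among them, were above their astrocyte level in 0 of 15 mice.

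A small part of the OPCs carried genes of division, and a larger part carried genes of the committed stage. OPCs with at least 2 UMIs of the proliferation genes Top2a and Mki67 together numbered 74 (2.78%), between 2 and 11 per mouse. The same threshold was met by 0.0708% of oligodendrocytes and 0.0365% of astrocytes, and after thinning every nucleus to 2000 UMIs (50 shallower OPCs left out) 2.87% of OPCs, 0.347% of oligodendrocytes and 0.304% of astrocytes had 1 UMI of these genes. Cycling OPCs also carried genes that did not choose them: the formin Diaph3 was at 556 CPM against 64.5 CPM in the OPCs of neither state, the kinetochore protein Knl1 at 346 CPM, Cenpf at 279 CPM and the spindle motor Kif11 at 241 CPM. Their Vcan level was lower (809 against 1237 CPM), as was that of Cspg4 (243 against 321 CPM).

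Committed OPCs, with at least 2 UMIs of Gpr17, Bmp4 and Enpp6 together, numbered 419 (15.7%), and 10 of these were also cycling. The threshold was met by 0.402% of astrocytes. It was met by 12.5% of oligodendrocytes, in which Enpp6 was at 122 CPM and Gpr17 at 3.89 CPM. After thinning to 2000 UMIs, 21.1% of OPCs, 19.9% of oligodendrocytes and 0.722% of astrocytes had 1 UMI of these genes, so at matched depth OPCs and oligodendrocytes were close. Compared within each mouse with the OPCs of neither state, committed OPCs had more of several myelin genes. Mbp was at 286 against 145 CPM (higher in 14 of 15 mice), Mobp at 81.7 against 42.5 CPM (13 of 15) and Aspa at 57.4 against 29.5 CPM (13 of 15). Mog, which chose the oligodendrocytes, was also higher, at 49.6 against 22.8 CPM (12 of 15). Bcas1, a marker of early myelinating cells, was at 493 against 388 CPM (13 of 15). The factor St18 was at 285 against 148 CPM and Myrf at 21.1 against 14.1 CPM, both higher in 12 of 15 mice. The AMPA receptor subunit Gria3 went the other way, at 593 against 688 CPM, higher in 1 of 15 mice. The 74 cycling OPCs were also above the OPCs of neither state in most of these genes, with Mbp at 297 CPM, Mobp at 108 CPM, Aspa at 64.2 CPM, St18 at 311 CPM and Myrf at 20.3 CPM, whereas their Bcas1 was at 255 CPM. Vcan and Cspg4 were close between committed OPCs and those of neither state, at 1189 against 1237 CPM and 319 against 321 CPM. Committed and cycling OPCs were deeper, with medians of 6102 and 6726 UMIs against 4867.5. The part of depth, and of oligodendrocyte RNA in the same barcodes, in these values was not tested within mice.

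Cycling OPCs were more frequent in control RE than in NP mice before correction for the number of tests, and the difference did not pass afterwards. The cycling share was 1.14% in the lowest NP mouse, 1.56% at the median and 3.16% in the highest. In control RE mice 66, 72, 87 and 88 it was 4.52%, 3.23%, 2.09% and 3.16%, and in stress RE mice 43, 70, 75, 77 and 90 it was 3.92%, 2.61%, 5.24%, 3.09% and 1.69%. The groups overlapped, although a control RE mouse was above an NP mouse in 22 of 24 pairs. The difference of means was 1.46 percentage points (p = 0.0286 by exact permutation of mice, two-sided, adjusted p = 0.143 over 9 tests, smallest possible p 0.00952). It was 1.04 points within batch 2 and 1.63 within batch 3, where 2 against 2 mice cannot give a p under 0.333. With mice permuted only within these batches it was 1.33 points (exact permutation p = 0.111). Stress RE was 1.52 points above NP (exact permutation of mice, two-sided p = 0.0563, adjusted p = 0.143), with 0.242 points in batch 2 and 2.90 in batch 3. Stress RE and control RE differed by 0.0586 points (exact permutation of mice, two-sided p = 0.952), with opposite signs within batch 2 (−0.803) and batch 3 (1.27). These shares rest on 2 to 11 cycling OPCs per mouse. Without the OPCs that carried UMIs of another class the differences from NP were 0.932 points for control RE and 0.895 for stress RE (exact permutation of mice, two-sided p = 0.210 and 0.147).

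The mean committed share was lowest in control RE, and no difference passed the correction. It was 10.0% in the lowest NP mouse, 21.4% at the median and 31.6% in the highest. Control RE mice had 14.0%, 6.45%, 7.33% and 8.42%, in the mouse order given above, and stress RE mice had 22.2%, 19.1%, 20.5%, 13.4% and 8.99%. Within both batches that held all groups, each control RE mouse was below every NP and stress RE mouse. The gap from NP to control RE was −11.3 points (exact permutation of mice, two-sided p = 0.0476, adjusted p = 0.143), with −2.96 points in batch 2 and −18.6 in batch 3. Stress RE exceeded control RE by 7.79 points (exact permutation of mice, two-sided p = 0.0635, adjusted p = 0.143; 3.76 and 10.7 points within the batches), and a stress RE mouse was above a control RE mouse in 18 of 20 pairs. Against NP the stress RE gap was −3.53 points (exact permutation of mice, two-sided p = 0.450), with 0.798 points in batch 2 and −7.95 in batch 3. With mice permuted only within batches 2 and 3, an alternative added after seeing the data, the mean differences were −10.8 points for control RE against NP and 7.21 for stress RE against control RE (exact permutation p = 0.0556 for both, the smallest that 36 regroupings can give). Group means of depth had the same order as those of this share. The median UMI count of OPCs averaged 4544.5 in control RE, 5484.8 in NP and 5465.2 in stress RE mice. Single mice were mixed. Stress RE mouse 75 had a median of 3543 UMIs and a share of 20.5%, control RE mouse 87 had 5449 and 7.33%, and NP mouse 63 had 5721.5 and 10.0%. In the order of the means were control RE mouse 72 (3664 and 6.45%) and stress RE mouse 43 (6688 and 22.2%). The relation across mice was not tested. With every OPC thinned to 2000 UMIs and 1 UMI asked for, control RE minus NP was −6.30 points (exact permutation of mice, two-sided p = 0.229), and stress RE was 4.37 points above control RE (exact permutation p = 0.286) and −1.93 points from NP. With 1 UMI asked for and no thinning, control RE minus NP was −14.9 points. Without the OPCs that carried UMIs of another class it was −12.4 points (exact permutation of mice, two-sided, unadjusted p = 0.0381 for both). In these 2 alternatives stress RE was 11.2 and 7.22 points above control RE (exact permutation of mice, unadjusted p = 0.0794 and 0.0635).

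Differences in the share of OPCs among the barcodes with at least 500 genes did not pass the test, and they depended on how OPCs were counted. It was 1.73% in the lowest NP mouse, 2.08% at the median and 2.74% in the highest. Control RE mice had 2.19%, 2.06%, 1.66% and 1.81%, and stress RE mice had 1.87%, 2.00%, 1.66%, 2.32% and 1.90%. The ranges overlapped, with only NP mice 27 and 37 above the highest stress RE mouse. The 95% Wilson interval of a single mouse, which covers counting error only, ran for example from 1.44% to 2.07% in the lowest NP mouse and from 2.40% to 3.13% in the highest. The gap from NP to control RE was −0.228 points (exact permutation of mice, two-sided p = 0.324, adjusted p = 0.486), that from control RE to stress RE 0.0228 points (exact permutation of mice, two-sided p = 0.889) and that from NP to stress RE −0.205 points (exact permutation of mice, two-sided p = 0.307). With 1 UMI of Pdgfra and Lhfpl3 in place of 2, the differences from NP were −0.525 points for control RE and −0.630 for stress RE (exact permutation of mice, two-sided, unadjusted p = 0.0476 and 0.00866). With 3 UMIs the differences from NP were −0.441 points for control RE and −0.260 for stress RE (exact permutation of mice, unadjusted p = 0.0476 and 0.216). After thinning to 1000 UMIs they were −0.289 points for control RE and −0.324 for stress RE (exact permutation of mice, unadjusted p = 0.124 and 0.00866). Per barcode of the oligodendrocyte lineage, control RE was 0.577 points above NP. Without NP mouse 37 the differences from NP were −0.110 points for control RE and −0.0871 for stress RE. A share of barcodes moves with all other classes, and fewer OPCs cannot be told apart from more of another class.

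**Figure D1:**
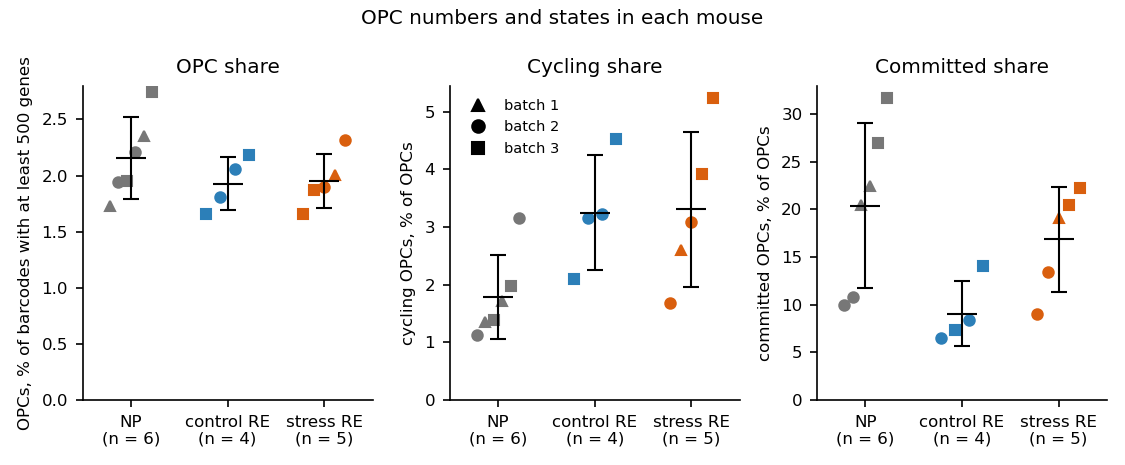
OPCs as a percent of the barcodes with at least 500 genes, and cycling and committed OPCs as a percent of the OPCs, one point per mouse (6 NP, 4 control RE and 5 stress RE), with bars for the mean and SD of a group and symbols for the batch. Cycling shares averaged 1.79% in NP and 3.25% in control RE, and committed shares 20.4% and 9.06%, with batch 3 above batch 2 for the committed share in NP and stress RE.

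For expression, UMI counts were summed over the OPCs of each mouse (pseudobulk), and 10686 genes were tested by edgeR across all 3 groups. Differences are given as log2 fold changes, and levels as CPM. No gene passed an adjusted p of 0.05 in control RE against NP (percent called 0.0), in stress RE against control RE (0.0) or in stress RE against NP (0.0). DESeq2 called 0 genes in the same comparisons. At an unadjusted p under 0.05, edgeR gave 487, 313 and 471 genes and DESeq2 361, 163 and 324, so every gene below is given by its values and none is a DEG. p-values measure the spread between mice. How many of all genes tested had no overlap between groups was not counted, so lack of overlap in a named gene is a description only. The 3 comparisons share samples, and their values for a gene are not independent. In a bulk sum of OPCs, fewer nuclei in a state and less RNA per nucleus cannot be told apart.

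In control RE against NP, 232 genes were higher (2.17% of those tested) and 255 lower (2.39%) at an unadjusted p under 0.05, and all adjusted p-values by edgeR were 0.998 for the genes named. Cell cycle genes leaned to control RE as the cycling share did, and the list is not independent of that share. Cenpf, for example, was at 279 CPM in cycling OPCs and at 1.78 CPM in the OPCs of neither state. All 12 tested genes of the 19 listed had a positive log2 fold change, with a median of 0.63 against −0.00 for all genes, and 2 had an unadjusted p under 0.05. These were the genes that define cycling OPCs. Mki67, a nuclear protein of dividing cells, was at 5.88 to 15.5 CPM in NP (median 8.97) and at 28.8, 28.4, 12.4 and 22.8 CPM in control RE (log2 fold change 1.13, SE 0.29). Top2a, the topoisomerase that untangles chromosomes, was at 5.88 to 29.2 CPM in NP and 39.0, 44.1, 14.0 and 39.7 CPM in control RE (1.19, SE 0.41). Control RE mouse 87 was the low one for both. With equal numbers of 115 OPCs per mouse Top2a gave 0.69.

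Lineage transcription factors leaned the other way, with a median of −0.09 over 22 genes and 4 lower against 0 higher at that unadjusted p. Olig1 was at 107 to 201 CPM in NP (median 149) and 152, 111, 52.9 and 87.3 CPM in control RE (log2 fold change −0.55, SE 0.25). The others included Olig2 (−0.42) and Nkx2-2 (−0.39), which acts in the step to the oligodendrocyte. Among 10 commitment genes 2 were lower, Gpr17 and the sialidase Neu4, and 2 higher, the small GTPase Rras2 (0.53) and 9630013A20Rik (0.95, but 0.20 without control RE mouse 72). Gpr17 was at 76.7 to 163 CPM in NP (median 104) and 107, 75.5, 40.5 and 77.4 CPM in control RE (−0.57, SE 0.23). It helps choose the committed OPCs, so its level is not independent of the committed share. Mouse 87 was again the lowest for Olig1 and Gpr17, which gave −0.34 and −0.36 without it. Myelin genes had a median of −0.02, with none of 14 at that p. Without the OPCs that carried UMIs of another class, which also takes out the ones with oligodendrocyte UMIs, 10 of 13 were positive. In that alternative 3 were higher at that p and the median was 0.22.

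Of 20 glutamate receptor genes 3 were higher in control RE at that unadjusted p and none lower. Gria1, an AMPA receptor subunit, was at 308 to 817 CPM in NP (median 455) and 591, 649, 883 and 1092 CPM in control RE (log2 fold change 0.75, SE 0.24). Grin2a gave 0.68 and Grin2b 0.35. Of 13 GABA receptor genes 2 were higher and 2 lower at that p, with the GABA-A receptor subunits Gabra2 at 0.47 and Gabra4 at −0.42, the latter at −0.05 without the OPCs that carried UMIs of another class. Of 19 ion channels 1 was higher and 2 lower, the lower ones being the potassium channel Kcnj10 (−0.46) and the calcium channel subunit Cacna2d2 (−0.45). The higher one, Cacna2d1, at 299 to 390 CPM in NP and 364, 397, 405 and 434 CPM in control RE, gave 0.32. Gria1 and Grin2a were lower in OPCs than in oligodendrocytes in 15 of 15 mice, at 636 against 947 CPM and 667 against 1004 CPM. The summed level of 4 excitatory neuron markers in OPCs was 59.0 to 98.4 CPM in NP, 67.7 to 102 CPM in control RE and 70.7 to 107 CPM in stress RE, with none of the 4 at 0, and its part in these values was not tested.

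The genes with the smallest p in this comparison came from several functions. Sh3bp5, a regulator of Rab GTPases, was at 44.7 to 52.4 CPM in NP and 62.3, 77.4, 68.5 and 75.4 CPM in control RE without overlap (log2 fold change 0.56, SE 0.13). Arhgdia, which inhibits GDP release from small GTPases, was at 11.0 to 23.5 CPM in NP and 8.57, 4.90, 6.22 and 3.97 CPM in control RE, again without overlap (−1.30, SE 0.30, and −0.75 with equal numbers of OPCs per mouse). Its control RE values rest on 11, 5, 8 and 4 UMIs. The others were Canx, a chaperone of the endoplasmic reticulum (−0.55), Ppp6c (0.53), Cenpp (0.71), Samd14 (−1.06) and Zbtb16 (0.75). Among class I antigen presentation genes H2-D1 gave −1.17 and H2-K1 −0.86. These are close paralogues with 176 and 146 UMIs over all OPCs, and a possible sharing of reads between them, which was not tested, leaves each uncertain.

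In stress RE against control RE, 196 genes were higher (1.83%) and 117 lower (1.09%) at an unadjusted p under 0.05, and adjusted p-values by edgeR were 1.00 for the genes named. The smallest p was that of Zbtb16, a zinc finger factor induced by glucocorticoids in many tissues. It was at 157, 149, 229 and 256 CPM in control RE mice 66, 72, 87 and 88 and at 94.3, 108, 102, 104 and 104 CPM in stress RE mice 43, 70, 75, 77 and 90 (log2 fold change −0.95, SE 0.21). The groups did not overlap, and stress RE had the smallest SD of the 3 groups (4.97 CPM), while NP ran from 68.2 to 163 CPM (median 128). The receptor chaperone Fkbp5, another glucocorticoid target, was at 53.0, 57.8, 65.3 and 86.3 CPM in control RE and 32.0, 58.3, 54.8, 38.7 and 45.6 CPM in stress RE (−0.53, SE 0.18), with overlap. Errfi1 gave −0.42. Together 3 of 7 tested glucocorticoid-responsive genes (of 14 listed) were lower and 0 higher at that unadjusted p, with a median of −0.30 against 0.01 for all genes. Against NP, the control RE mice had positive values for 5 of the 7 (median 0.23), with Zbtb16 at 0.75 and Fkbp5 at 0.50, and these comparisons share the control RE mice. Zbtb16 was below its oligodendrocyte level (261 CPM) in OPCs of every mouse.

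Arhgdia stood at 13.5, 17.6, 12.4, 11.5 and 12.1 CPM in stress RE, above every control RE mouse and within the range of NP (log2 fold change against control RE 1.12, SE 0.32). It had only 199 UMIs over the OPCs of all mice. Other named genes without overlap and higher in stress RE than in control RE included Jam3, a junctional adhesion molecule, at 100 to 122 against 77.02 to 81.3 CPM (0.49). Arhgap10 (0.63), Litaf (0.69) and Fam171a2 (0.80) were too. Lower without overlap were the serine protease Htra1, at 40.0 to 66.2 against 70.6 to 84.9 CPM (−0.60), and the BMP-binding protein Crim1 (−0.51). The lineage factor Olig2, at 103, 78.4, 53.7 and 59.5 CPM in control RE and 122, 118, 135, 102 and 63.2 CPM in stress RE (0.54, SE 0.20), overlapped between the groups. The Notch ligand Jag1 gave 0.56, without overlap, and Insig1, a sensor of sterol synthesis, 0.97.

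All 14 myelin genes had a positive log2 fold change in stress RE against control RE (median 0.26) and against NP (median 0.35), where Mal, a myelin proteolipid, had an unadjusted p under 0.05 (0.84, SE 0.37). Mbp was at 119 to 206 CPM in NP, 211, 201, 140 and 136 CPM in control RE and 222, 122, 336, 229 and 120 CPM in stress RE. Mice 43, 75 and 77 were above all mice of the other groups, and mice 70 and 90 lay within the range of NP. The summed level of 6 oligodendrocyte markers, which includes Mbp, ran with it, from 409 to 958 CPM in NP, 477 to 747 CPM in control RE and 414 to 1201 CPM in stress RE with the highest value in mouse 75. None of the 6 was at 0. Within stress RE, OPCs with at least 2 UMIs of another class followed the same split. They made up 22.2%, 23.3% and 21.6% in mice 43, 75 and 77 and 16.5% and 14.0% in mice 70 and 90. NP mice 27 and 37 were as high, at 21.8% and 20.5%, although Mbp was at most 206 CPM in NP. NP ran from 6.03% to 21.8% and control RE from 12.9% to 16.2%. Mean shares of such OPCs were 19.6% in stress RE, 14.7% in NP and 14.4% in control RE. Without those OPCs, which also takes out the ones with oligodendrocyte UMIs, 6 of 13 tested myelin genes were positive in stress RE against control RE (median −0.02) and 10 of 13 in stress RE against NP (median 0.17).

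In stress RE against NP, 236 genes were higher (2.21%) and 235 lower (2.2%) at an unadjusted p under 0.05, and adjusted p-values by edgeR were 0.999 for the genes named. The smallest p was that of H2-K1, at 9.71 to 24.9 CPM in NP (median 12.5) and 2.53, 2.20, 7.24, 4.11 and 5.58 CPM in stress RE without overlap (log2 fold change −1.62, SE 0.35). All 6 tested antigen presentation and interferon genes of 12 had negative values, with a median of −0.22 and 1 at that unadjusted p, and without the OPCs that carried UMIs of another class the median was −0.0749 over 4 genes. Amotl1 (−0.66), a regulator of the Hippo pathway, Vac14 (−0.71) and Lrrc20 (−0.61) were lower, and the guanine deaminase Gda was at 5.88 to 16.7 CPM in NP and 19.4, 17.6, 26.9, 27.1 and 26.0 CPM in stress RE (1.07, SE 0.26). Without the OPCs that carried UMIs of another class, Amotl1 gave −0.20 and Gda 0.55. Colec12 (−1.57, and −0.92 without those OPCs) and Cped1 (−2.18) were both above their OPC level in astrocytes and spread widely in NP, from 21.1 to 74.6 CPM and from 8.82 to 64.7 CPM. Leptomeningeal markers in OPCs were also highest in NP mice, with a summed level of 0 to 64.9 CPM in NP, 0.779 to 13.2 CPM in control RE and 0 to 6.20 CPM in stress RE. Their part in these values was not tested. The unnamed transcript 4921539H07Rik ran from 8.27 to 78.1 CPM within stress RE and from 4.44 to 22.1 CPM in NP (2.08, SE 0.56).

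Cell cycle genes had a median of 0.68 in stress RE against NP, with 11 of 12 positive and 6 higher at that unadjusted p, beside 2.21% of all genes. This list is not independent of the cycling share, which rests on 2 to 11 OPCs per mouse. Mki67 was at 11.8, 19.8, 24.8, 19.7 and 13.0 CPM in stress RE (log2 fold change 0.75, SE 0.29), Cenpf gave 1.02 and Kif11 0.91. Against control RE the same 12 genes had a median of −0.02 with 6 positive. Side by side, Neu4 gave −0.36 in control RE and −0.31 in stress RE against NP, Nkx2-2 gave −0.39 and −0.35, and Gria1 gave 0.75 and 0.51, and both comparisons use the same NP mice. Without the OPCs that carried UMIs of another class, the stress RE values were 0.03 for Gria1 and −0.20 for Nkx2-2, and 1 of 10 tested cell cycle genes was higher at that unadjusted p (median 0.63). Cenpf gave 0.52 without stress RE mouse 75. Of the dopamine and monoamine list only 5 of 16 genes passed the filter on low counts. Maoa, which degrades monoamines, was at 17.6 to 37.5 CPM in NP (median 30.1), 21.8, 19.6, 18.7 and 16.9 CPM in control RE and 25.3, 11.0, 23.8, 14.8 and 20.5 CPM in stress RE (−0.56 and −0.58 against NP). Adra1a gave −0.37 in stress RE against NP.

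The remaining lists had medians within 0.21 of 0 in control RE against NP, from −0.21 for 15 cholesterol genes to 0.10 for 3 immediate early and heat shock genes, except dopamine and monoamine genes at −0.32. Growth factor signalling genes had medians of −0.11, −0.05 and −0.12 in the 3 comparisons, with Spry4, a feedback inhibitor of receptor kinases, at −0.39 in stress RE against NP as the 1 of 18 genes at an unadjusted p under 0.05. Matrix genes had medians of −0.08, 0.07 and −0.05, with Bcan and the proteoglycan Sdc3 lower in control RE against NP (−0.47 and −0.48). Hormone receptors had medians of −0.07, 0.04 and −0.02 over 8 tested genes, and Rxrg, a nuclear receptor that promotes remyelination, gave −0.91 in control RE against NP. Notch, Wnt and BMP genes had medians of −0.12, 0.01 and −0.05, and ion channels −0.01, −0.04 and 0.00.

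One gene differed in its response between OPCs and oligodendrocytes of the same mice. The test asks whether the group difference in OPCs departs from that in oligodendrocytes, with each mouse as a block, over 13948 genes. It called 0 genes in control RE against NP and 1 gene (0.00717%) in each of the stress RE comparisons, and the gene was 9630013A20Rik both times. This long noncoding RNA (ENSMUSG00000115529, GRCm38 chr14:84458639-84476424, minus strand) is known as a marker of newly formed oligodendrocytes. It overlaps the protocadherin gene Pcdh17, and whether reads were counted by strand is not given in the sources used here. It was at 526 CPM in newly formed oligodendrocytes, 65.3 CPM in oligodendrocytes, 37.4 CPM ± 28.5 (SD, n = 15) in OPCs and 18.8 CPM in astrocytes. Its promoter, from 250 bases before to 50 after the annotated start, is shown because the locus carried the called difference (RefSeq, GRCm38.p6, chr14:84476375-84476674, minus strand). Capitals mark the single E-box match of the letters CANNTG, the class of site that Olig1 and Olig2 bind, and the single match of ACAATG, a site of the kind Sox factors bind, both searched on either strand.
9630013A20Rik: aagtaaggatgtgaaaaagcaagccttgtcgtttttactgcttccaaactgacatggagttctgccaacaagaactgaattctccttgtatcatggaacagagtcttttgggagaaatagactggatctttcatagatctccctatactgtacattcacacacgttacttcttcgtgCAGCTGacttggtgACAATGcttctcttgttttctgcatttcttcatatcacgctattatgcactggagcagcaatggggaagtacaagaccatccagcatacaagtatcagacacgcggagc
The other Sox letters searched, ACAAAG, had no match in this window. Of 32851 promoters of this length, 72.3% held CANNTG, 12.6% ACAATG and 18.7% ACAAAG, so these matches are common.

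The level of 9630013A20Rik in OPCs did not separate the groups. It was 13.2 CPM in the lowest NP mouse, 25.4 CPM at the median and 50.0 CPM in the highest. Control RE mice 66, 72, 87 and 88 had 29.6, 128, 21.0 and 51.6 CPM, and stress RE mice 43, 70, 75, 77 and 90 had 28.6, 12.1, 44.5, 46.9 and 23.2 CPM. In oligodendrocytes of the same mice it was 13.5 to 56.6 CPM in NP, 21.3, 112, 22.7 and 50.1 CPM in control RE and 106, 72.3, 152, 111 and 125 CPM in stress RE. Oligodendrocytes thus had about the OPC level in NP and control RE and several times that level in stress RE. The ratio of oligodendrocytes to OPCs was 0.879 to 1.65 in NP (median 1.12), 0.721 to 1.08 in control RE (median 0.922) and 2.37 to 5.98 in stress RE (median 3.69). The stress RE mice did not overlap with any other mouse, and they came from all 3 batches.

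The log2 difference between the response in OPCs and that in oligodendrocytes was −1.996 for 9630013A20Rik in stress RE against control RE (SE 0.21, adjusted p = 1.74e-05 by edgeR) and −1.59 in stress RE against NP (SE 0.21, adjusted p = 0.000820 by edgeR), and 0.41 in control RE against NP (SE 0.21, adjusted p = 1.00 by edgeR). In oligodendrocytes alone the gene was not called, with log2 fold changes of 1.14 in stress RE against control RE (SE 0.46, adjusted p = 1.00 by edgeR) and 1.72 in stress RE against NP (SE 0.41, adjusted p = 1.00 by edgeR), and mice of a group varied widely in both classes. Control RE mouse 72, for example, was high in both, at 128 and 112 CPM. Newly formed oligodendrocytes, the class richest in the transcript, made up 4.90 to 16.3% of oligodendrocytes in NP, 3.40 to 8.33% in control RE and 4.74 to 14.2% in stress RE. Without them the differences were −1.55 (SE 0.36, adjusted p = 1.00 by edgeR) and −1.53 (SE 0.36, adjusted p = 0.590 by edgeR) and no gene was called. Pcdh17, which shares the locus, gave −0.05 and −0.13 in the same tests (adjusted p = 1.00 by edgeR for both), at 218 to 356 CPM in OPCs.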

How the data were processed

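snRNA-seq (10x 3' chemistry) of dHF micropunches was analysed for 15 mice in 3 groups and 3 batches, taken from the labels. The authors deposited whole UMI counts of 32285 genes in barcodes called as nuclei, from Cell Ranger 7.1.0 per the submitters' notes and mm10 (GRCm38) per the file headers. The submitters' notes also name GRCm39 and Seurat. These counts precede the SoupX and DoubletFinder steps that the methods describe, so free RNA and doublets remain in them. The headers name an earlier Cell Ranger version than the notes.

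Members, marker lists, 17 gene lists (279 genes) and tests were chosen with earlier results of these data known, so a list is described by counts and medians only. OPCs were selected by thresholds on counts with no clustering, so no doublet caller was run and OPCs with at least 2 UMIs of another class were left out in an alternative. CPM values were scaled to the UMIs pooled over a class in a mouse. Shares per mouse were compared by two-sided exact permutation tests over mice (scipy 1.17.1, p built on the smaller tail), with Benjamini-Hochberg adjustment over 9 tests. Counts summed per mouse were tested in R 4.3.3 with edgeR 4.0.16 (filterByExpr, TMM, quasi-likelihood test, all 15 mice, Benjamini-Hochberg adjusted p under 0.05). The test between OPCs and oligodendrocytes used a class by group interaction with the mouse as a block. The authors' own tool, DESeq2, was run as an alternative (1.42.0). The scripts were tested on simulated data with 200 changed genes.

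Genes named with a fold change were those called by either tool, the 8 with the smallest p in each comparison, and up to 3 per list with an unadjusted p under 0.05. Lists, markers and receptors could also be named with levels. Depth per mouse (679893 to 1545457 UMIs in OPCs) limits low genes. Wilson intervals are at 95% and 3 counts were taken as the upper limit behind a count of 0. Alternatives changed the marker threshold, denominator, depth, normalization, filter, batch term, groups in the fit, equal numbers of 115 OPCs per mouse, and each mouse left out. Positions are from GENCODE M21 (GRCm38). Python 3.11.15 was used. Some genes are not reported here.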

Additional observations from a re-analysis of the deposited data

Results flagged for a closer look

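Of 204 groups of values checked, 9 held a mouse far from the others, where chance flags about 1 in 20 groups. NP mouse 73 was the highest for Grin2a (919 CPM, others 366 to 512 CPM), Gabra4 (159 CPM, others 94.2 to 108 CPM) and Cacna2d1 (390 CPM, others 299 to 327 CPM). NP mouse 35 was the lowest for Vac14 (22.2 CPM, others 30.0 to 34.6 CPM). NP mouse 31 was the highest for 4921539H07Rik (22.1 CPM, others 4.44 to 9.56 CPM), as was control RE mouse 88 in its group (58.5 CPM, others 23.4 to 28.0 CPM). Control RE mouse 87 was the lowest for Top2a (14.0 CPM, others 39.0 to 44.1 CPM) and control RE mouse 66 the highest for Mal (63.9 CPM, others 25.5 to 28.8 CPM). Stress RE mouse 70 was the lowest for Kcnj16 (17.6 CPM, others 29.6 to 34.4 CPM).

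The response of 9630013A20Rik differed between OPCs and oligodendrocytes, by −1.996 on the log2 scale in stress RE against control RE and by −1.59 in stress RE against NP, each tested as an interaction over 15 mice (adjusted p = 1.74e-05 and 0.000820 by edgeR). With newly formed oligodendrocytes left out of the oligodendrocytes, the differences were −1.55 and −1.53 and neither was called.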

How the results depend on the processing

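No paired analysis was possible because the labels give no replicate numbers. The labelled batches were used instead, as a term and for permutation within batches. The exact permutation p was first computed from absolute differences and then changed to scipy's form, built on the smaller tail. The first form, kept as an alternative added after seeing the data, gave exact permutation p = 0.0455 for the cycling share in stress RE against NP (1.52 points) and p = 0.0476 for the committed share in stress RE against control RE (7.79 points).

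For the OPC share, control RE minus NP was 0.577 points per oligodendrocyte-lineage barcode, −0.525 with 1 UMI and −0.441 with 3 UMIs of both genes (exact permutation p = 0.0476 for both), −0.426 in batch 3, and −0.314 to −0.110 with a mouse left out. Stress RE minus control RE was −2.61 per lineage barcode, −0.105 with 1 UMI, −0.0342 after thinning to 1000 UMIs, −0.0834 without OPCs with UMIs of another class, −0.157 in batch 3, and −0.0696 to 0.109 with a mouse left out. Stress RE minus NP was −0.630 with 1 UMI and −0.324 after thinning (exact permutation p = 0.00866 for both), 0.0317 in batch 2, −0.583 in batch 3, and −0.297 to −0.0871 with a mouse left out.

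For the cycling share, control RE minus NP was 2.00 with 1 UMI (exact permutation p = 0.0571), 0.932 without OPCs with UMIs of another class, 1.04 and 1.63 within batches 2 and 3, 1.33 with mice permuted within them, and 1.03 to 1.84 with a mouse left out, where the unadjusted call was lost without control RE mouse 66 or 72. Stress RE minus control RE was −0.455, −0.280 after thinning to 2000 UMIs, −0.0368, −0.803 in batch 2, and −0.424 to 0.483 with a mouse left out. Stress RE minus NP was 0.895 without OPCs with UMIs of another class and 1.04 to 1.92 with a mouse left out, and the unadjusted call appeared without NP mouse 63 or stress RE mouse 90.

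For the committed share, control RE minus NP was −14.9 with 1 UMI and −12.4 without OPCs with UMIs of another class (exact permutation p = 0.0381 for both). It was −6.30 after thinning, −2.96 and −18.6 within batches, and −10.8 with mice permuted within them. With a mouse left out it was −13.4 to −9.06. The unadjusted call was lost without NP mouse 27, 31, 37 or 73 or control RE mouse 72, 87 or 88. Stress RE minus control RE was 4.37 after thinning and 6.44 to 9.75 with a mouse left out, with the unadjusted call without control RE mouse 66. Stress RE minus NP was −1.93 after thinning, 0.798 in batch 2 and −5.60 to −1.27 with a mouse left out.

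Without the filter on low counts, edgeR called 1 gene in stress RE against control RE, Zbtb16 (−0.97, adjusted p = 0.0138 by edgeR), and 8 in stress RE against NP, with Colec12, Cped1 and 4921539H07Rik among them. In every other fit, including DESeq2 with batch as a term, the count stayed at 0. The test between OPCs and oligodendrocytes called 17, 10 and 43 genes without that filter, 3 in stress RE against control RE without OPCs with UMIs of another class, and 0 and 0 in the stress RE comparisons without newly formed oligodendrocytes, an alternative added after seeing the data. With a mouse left out 9630013A20Rik was called in both stress RE comparisons each time, at −2.22 to −1.89 and −1.81 to −1.48. Among named genes, control RE minus NP moved by over 1.5 times with batch as a term for Bcan (−0.26), Sdc3 (−0.32) and Neu4 (−0.23), without OPCs with UMIs of another class for Grin2b (0.62), and with equal numbers of OPCs for Cenpp (0.46). Stress RE minus control RE moved with equal numbers for Arhgdia (0.74) and Jag1 (0.89) and with 3 UMIs of both genes for Errfi1 (−0.76), as did stress RE minus NP for Cped1 (−1.40). With a mouse left out, Grin2b gave 0.21 without control RE mouse 88 and Sdc3 −0.31 without NP mouse 27. The causes of these changes were not tested.

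Low counts per OPC limit the shares, and 4 to 6 mice per group limit the tests. Absence of a called gene does not show that expression was equal.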

Other observations

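Genes of commitment and differentiation differed in their order across the lineage, and Fyn, Tns3 and Tcf7l2 were highest in newly formed oligodendrocytes, with OPCs between that class and oligodendrocytes. The kinase Fyn, which acts downstream of axonal contact, had a mean of 298 CPM in OPCs, 881 CPM in newly formed oligodendrocytes and 160 CPM in oligodendrocytes over 15 mice. The adhesion protein Tns3 had 272, 637 and 139 CPM in the same order, and Tcf7l2, a Wnt effector of differentiation, 212, 585 and 148 CPM. Itpr2, a calcium channel of the endoplasmic reticulum, was at 479 CPM in OPCs and 434 CPM in newly formed oligodendrocytes, and at 47.2 CPM in oligodendrocytes. Bcas1 was lower in OPCs (409 CPM) than in oligodendrocytes (585 CPM), and Neu4 was higher (171 against 2.07 CPM), with 52.1 CPM in newly formed oligodendrocytes.

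Genes of cholesterol synthesis and uptake, which supply myelin membrane, were at 6.54 to 73.5 CPM in OPCs, from Idi1 to Srebf2. Of the 15, 8 were below oligodendrocytes in every mouse and 9 below astrocytes in every mouse, and none was above either class in every mouse.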
